A study of Mus musculus with 2 samples.

Results

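The cholesterol synthesis genes described here are *Hmgcs1*, *Idi1*, *Fdps*, *Fdft1*, *Sqle*, *Cyp51*, *Msmo1* and *Insig1*. These 8 genes were taken by symbol, as enzymes and a regulator of 1 pathway, out of 27998 genes in each count table. UMIs (unique molecular identifiers, 1 per captured RNA molecule) of these genes were taken from both tables, over cell barcodes with more than 500 detected genes, and are described by tumor, by cell class and cell by cell at a fixed depth. In the neuroendocrine-like cells the 8 genes together took 456 CPM (UMIs of a gene scaled to a fixed total, counts per 1e+06 UMIs) in one tumor and 344 CPM in the other, while single genes stood far apart between the tumors, from *Insig1*, which was 4.02-fold higher in TKO1, to *Cyp51*, which was 2.76-fold higher in TKO2.

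The cells came from a mouse model of small cell lung cancer (SCLC), a neuroendocrine lung tumor. Both tumors, TKO1 and TKO2, arose in lungs of mice labelled Rb-/-; *Trp53*-/-; *Rbl2*-/- with a Rosa26 membrane-Tomato or membrane-GFP reporter, and had a mixed strain background (129/SvOla, 129/SVJ and C57BL/6). Adeno-CMV-cre started the tumors, and because Cre was driven by the CMV promoter its delivery was not restricted to one lung cell type. One tumor per mouse was taken 7 months after induction at an age of 8 to 9 months, live cells were sorted, and 1 10x Chromium library was made per tumor, and normal lung was not analysed here. Tumor, mouse and library therefore cannot be told apart, no comparison has a p-value, and every interval below is a 95% interval for counting error only.

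Cells make cholesterol from acetyl-CoA through the mevalonate pathway. HMGCS1 condenses the first intermediates to HMG-CoA, IDI1 and FDPS build the isoprenoid farnesyl diphosphate, FDFT1 (squalene synthase) joins farnesyl units to squalene, SQLE oxidizes squalene, and CYP51 and MSMO1 remove methyl groups from the sterol ring. When sterols run low in the endoplasmic reticulum, the transcription factor SREBP-2 is escorted by SCAP to the Golgi, released by proteases and switches these genes on together. INSIG1 retains SCAP and SREBP-2 in the endoplasmic reticulum, and its own gene is a target of the same factor.

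Promoter sequence is shown for the genes that stood furthest apart between the tumors, *Insig1* and *Cyp51*, and for *Hmgcs1*. Of the 5 genes with a promoter in the RefSeq table, *Hmgcs1* was the only one that matched the sterol element searched. RefSeq (GRCm38.p6) held a promoter for 5 of the 8 genes, namely *Cyp51*, *Hmgcs1*, *Idi1*, *Insig1* and *Msmo1*. The sequences below run 5′ to 3′ on the strand of the gene, from 250 bases before the RefSeq start, and end before any transcript start annotated in GENCODE M21. Capitals mark a match on either strand to the sterol regulatory element TCACNCCAC, to the NF-Y box CCAAT or to the Sp1 box GGGCGG, and a match on the opposite strand appears as its reverse complement.
Hmgcs1, chr13:119690101-119690350, plus strand: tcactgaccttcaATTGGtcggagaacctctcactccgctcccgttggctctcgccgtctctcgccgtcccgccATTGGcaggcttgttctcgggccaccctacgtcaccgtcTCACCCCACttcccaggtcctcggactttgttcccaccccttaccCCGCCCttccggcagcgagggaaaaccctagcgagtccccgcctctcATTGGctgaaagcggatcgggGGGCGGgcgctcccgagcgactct
Insig1, chr5:28071162-28071362, plus strand: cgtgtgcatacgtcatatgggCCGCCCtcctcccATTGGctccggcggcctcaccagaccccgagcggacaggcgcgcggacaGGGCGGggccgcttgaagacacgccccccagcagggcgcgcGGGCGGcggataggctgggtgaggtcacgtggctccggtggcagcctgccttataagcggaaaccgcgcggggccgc
Cyp51, chr5:4104747-4104947, minus strand: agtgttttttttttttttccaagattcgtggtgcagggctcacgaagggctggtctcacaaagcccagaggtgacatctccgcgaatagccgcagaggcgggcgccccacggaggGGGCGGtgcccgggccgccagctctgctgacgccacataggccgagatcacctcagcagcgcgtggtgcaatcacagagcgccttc

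The *Hmgcs1* window held the sterol element from base -137 to base -129 before the start, with 3 NF-Y boxes and 2 Sp1 boxes. The sterol element was found in 1.05% of 32851 RefSeq promoter windows of the same 250 bases, and all 3 motifs together in 0.0944% of them. The NF-Y box was in the windows of 5 of 5 genes against 33.8% of all windows, and the Sp1 box in 5 of 5 against 32.7%. The *Insig1* window held 3 Sp1 boxes and 1 NF-Y box, and the *Cyp51* window 1 Sp1 box and, closer to the start than the stretch shown, 1 NF-Y box. Motifs overlapped in none of these windows. A match is a description of the letters, not a bound site. A window without a match to the letters searched may still hold a sterol element with other letters.

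In GRCm38, by GENCODE M21, *Hmgcs1* (ENSMUSG00000093930) lies at chr13:119690379-119708260 on the plus strand, *Idi1* (ENSMUSG00000058258) at chr13:8885501-8892451, plus, *Sqle* (ENSMUSG00000022351) at chr15:59315077-59331192, plus, and *Insig1* (ENSMUSG00000045294) at chr5:28071363-28078662, plus. On the minus strand lie *Fdps* (ENSMUSG00000059743) at chr3:89093588-89101959, *Fdft1* (ENSMUSG00000021273) at chr14:63145150-63179578, *Cyp51* (ENSMUSG00000001467) at chr5:4081145-4104746 and *Msmo1* (ENSMUSG00000031604) at chr8:64718139-64733792. The annotation places a same-strand gene model, *Gm43738*, over 7512 bases of *Fdps*, so the *Fdps* counts are uncertain to the extent that reads were split. The end of *Fdft1* overlaps *Ctsb* by 774 bases and the end of *Cyp51* overlaps *Akap9* by 166 bases on the opposite strand, and *Hmgcs1* and *Idi1* have opposite-strand models, *Gm48342* and *Gm48574*, inside or across them. The strand setting of the counting is not given in the sources used here. *Ctsb*, a lysosomal protease, had 2517 CPM in the macrophage-like cells of TKO1, where *Fdft1* had 6.99 CPM from 1 UMI. In the neuroendocrine-like cells *Ctsb* had 180 CPM in TKO1 and 37.0 CPM in TKO2, where *Fdft1* had 70.6 and 31.6 CPM. *Akap9* had 180 and 89.6 CPM there, beside 15.1 and 41.8 CPM of *Cyp51*. The part of neighbour reads in these counts was not tested.

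TKO1 had 3193 cells with more than 500 genes of 4514 barcodes, and TKO2 3568 of 3816, with medians of 1223 and 1960 UMIs per cell, and 22 barcodes occurred in both libraries, without which the summed ratio below was 0.41 as with them. Clustered tumor by tumor, 2620 cells of TKO1 (3765592 UMIs, 7 clusters) and 3381 of TKO2 (7760480 UMIs, 8 clusters) were neuroendocrine-like, and 98 and 121 were macrophage-like. The 16 neuroendocrine markers were all detected in the neuroendocrine-like cells of both tumors, but summed to 23355 CPM in TKO1 and 1929 CPM in TKO2, against 4510 and 759 CPM in the macrophage-like cells of the same tumors. The unnamed cluster 8 of TKO1 had 6671 CPM and cluster 9 of TKO2 8575 CPM, the latter above the TKO2 cells called neuroendocrine-like, so in TKO2 these markers set the named cells apart from macrophage-like cells but not from cluster 9. Macrophage markers summed to 42.5 and 14.0 CPM in the neuroendocrine-like cells. Cluster 4 of TKO1 (370 cells) carried neuroendocrine markers with 4 markers of ciliated cells and was left unnamed, a choice made after its values were seen, and cluster 8 of TKO1 (105 cells) and cluster 9 of TKO2 (66 cells), led by club cell genes such as *Scgb1a1* or by *Sftpd*, also stayed unnamed. *Rb1*, *Trp53* and *Rbl2* UMIs were present in the neuroendocrine-like cells of both tumors, and counts per gene do not show whether the deleted exons were there.

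*Hmgcs1*, at the entry of the pathway, had 23.4 CPM (88 UMIs) in the neuroendocrine-like cells of TKO1 and 28.1 CPM (218 UMIs) in those of TKO2. The log2 ratio of TKO1 over TKO2 was -0.27, with an interval from -0.64 to 0.10 that holds 0. *Idi1* was sparse, with 12 UMIs in TKO1 (3.19 CPM) and 19 in TKO2 (2.45 CPM), and its ratio of 0.38 had an interval from -0.80 to 1.50. These depths do not allow a difference in *Idi1* to be detected.

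*Fdps*, the farnesyl diphosphate synthase, had 135 CPM (509 UMIs) in TKO1 and 96.8 CPM (751 UMIs) in TKO2, a log2 ratio of 0.48 (0.32 to 0.65). *Fdft1*, at the step committed to sterols, had 70.6 CPM (266 UMIs) in TKO1 and 31.6 CPM (245 UMIs) in TKO2, a log2 ratio of 1.16 (0.91 to 1.42). *Sqle*, the squalene epoxidase, had 106 CPM (401 UMIs) against 71.3 CPM (553 UMIs), a ratio of 0.58 (0.39 to 0.77). The squalene steps were thus higher in TKO1, with intervals above 0.

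Of the demethylation genes after lanosterol, *Cyp51* and *Msmo1* went the other way. *Cyp51* had 15.1 CPM (57 UMIs) in TKO1 and 41.8 CPM (324 UMIs) in TKO2, a log2 ratio of -1.46 (-1.90 to -1.05). *Msmo1*, the sterol C4-methyl oxidase, had 36.6 CPM (138 UMIs) in TKO1 and 56.2 CPM (436 UMIs) in TKO2, a ratio of -0.62 (-0.90 to -0.34). Both were lower in TKO1, so genes of 1 pathway stood on opposite sides of 0. Among other enzymes of C4 demethylation, *Hsd17b7* was also lower at -0.76 (-1.33 to -0.22), while *Nsdhl* was at 0.08 (-0.32 to 0.47). Proliferation genes summed to 1705 CPM in TKO1 and 2810 CPM in TKO2. Cells without a UMI of those genes held 1431951 UMIs in TKO1 and 882535 in TKO2, of 3765592 and 7760480, and were not brought to 1 depth. Among them the ratio of *Msmo1* was -0.24 (-0.83 to 0.36), that of *Fdps* 0.23 (-0.13 to 0.59) and that of *Fdft1* 0.78 (0.14 to 1.46). *Cyp51* was at -1.57 (-2.49 to -0.70) there, *Insig1* at 2.13 (1.25 to 3.13) and *Sqle* at 0.65 (0.24 to 1.08).

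*Insig1*, the brake on SREBP-2, had 65.3 CPM (246 UMIs) in TKO1 and 16.2 CPM (126 UMIs) in TKO2. Its log2 ratio of 2.01 (1.69 to 2.33) was the highest of the 8 genes. *Insig1* and *Cyp51* are both targets of SREBP-2 and lay at opposite ends of the list.

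**Figure D1:**
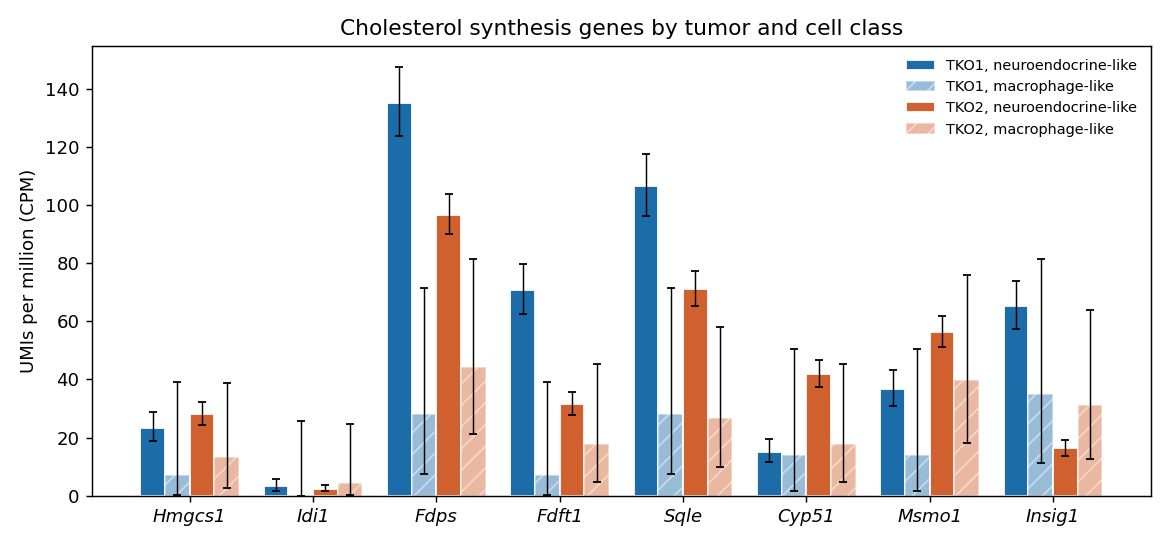
Level of each of the 8 genes in CPM (y axis) in the neuroendocrine-like (solid) and macrophage-like cells (hatched) of TKO1 (blue) and TKO2 (orange). Bars are summed UMIs of 1 library and error bars exact Poisson 95% intervals, and *Insig1* stands at 65.3 against 16.2 CPM while *Cyp51* stands at 15.1 against 41.8 CPM.

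The scale of this comparison matters, because the median log2 ratio of the 12848 genes with at least 10 UMIs was itself 0.37. Of all neuroendocrine-like UMIs, 10.0% in TKO1 and 21.5% in TKO2 came from ribosomal protein genes, and with those and the mitochondrial genes taken out of the total the median was 0.17. Relative to the median of all genes, *Insig1* was at 1.64 (1.33 to 1.96), *Fdft1* at 0.80 (0.54 to 1.05) and *Sqle* at 0.21 (0.02 to 0.40). *Fdps* was at 0.12 (-0.05 to 0.28) and *Idi1* at 0.01 (-1.16 to 1.13), and both intervals hold 0. *Hmgcs1* at -0.63 (-1.01 to -0.27), *Msmo1* at -0.98 (-1.27 to -0.70) and *Cyp51* at -1.83 (-2.26 to -1.42) lay below. Relative to all genes, 3 of the 8 genes were thus higher in TKO1, where 34.5% of all tested genes had an interval above 0, 3 were lower, where 33.8% had one below 0, and 2 were not separable. For *Sqle* this depended on the setting. Among cells with more than 1000 genes its CPM interval, 0.15 to 0.69, held the median of all genes there, 0.37. With each cell thinned to 1000 UMIs its interval, 0.14 to 0.72, held the median of 0.34. Most other alternatives kept it above the median.

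Past 2-fold in CPM were 2 of the 8 genes in the direction of TKO1, *Fdft1* and *Insig1*, where 31.0% of all tested genes were, and 1 in the direction of TKO2, *Cyp51*, where 12.0% of all tested genes were. Relative to the median, 1 gene of 8, *Insig1*, was past 2-fold toward TKO1 and 1, *Cyp51*, toward TKO2, beside 22.9% and 18.4% of all tested genes. With TMM factors, 54.6% of the 2-fold calls over all genes were toward TKO1 instead of 72.0%, and *Insig1* (toward TKO1), *Cyp51* and *Msmo1* (both toward TKO2) were past 2-fold. The counts of genes past 2-fold are near what all genes showed. Over the 8 genes summed, the log2 ratio was 0.41 (0.32 to 0.49) in CPM, 0.04 relative to all genes and 0.02 with TMM factors, and the median of the 8 single ratios was 0.43 beside 0.37 for all genes. The pathway sum thus followed the median gene, while its single genes ran from -1.83 to 1.64 around it. In the bulk sums, fewer cells that express a gene and less RNA per cell cannot be told apart.

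**Figure D2:**
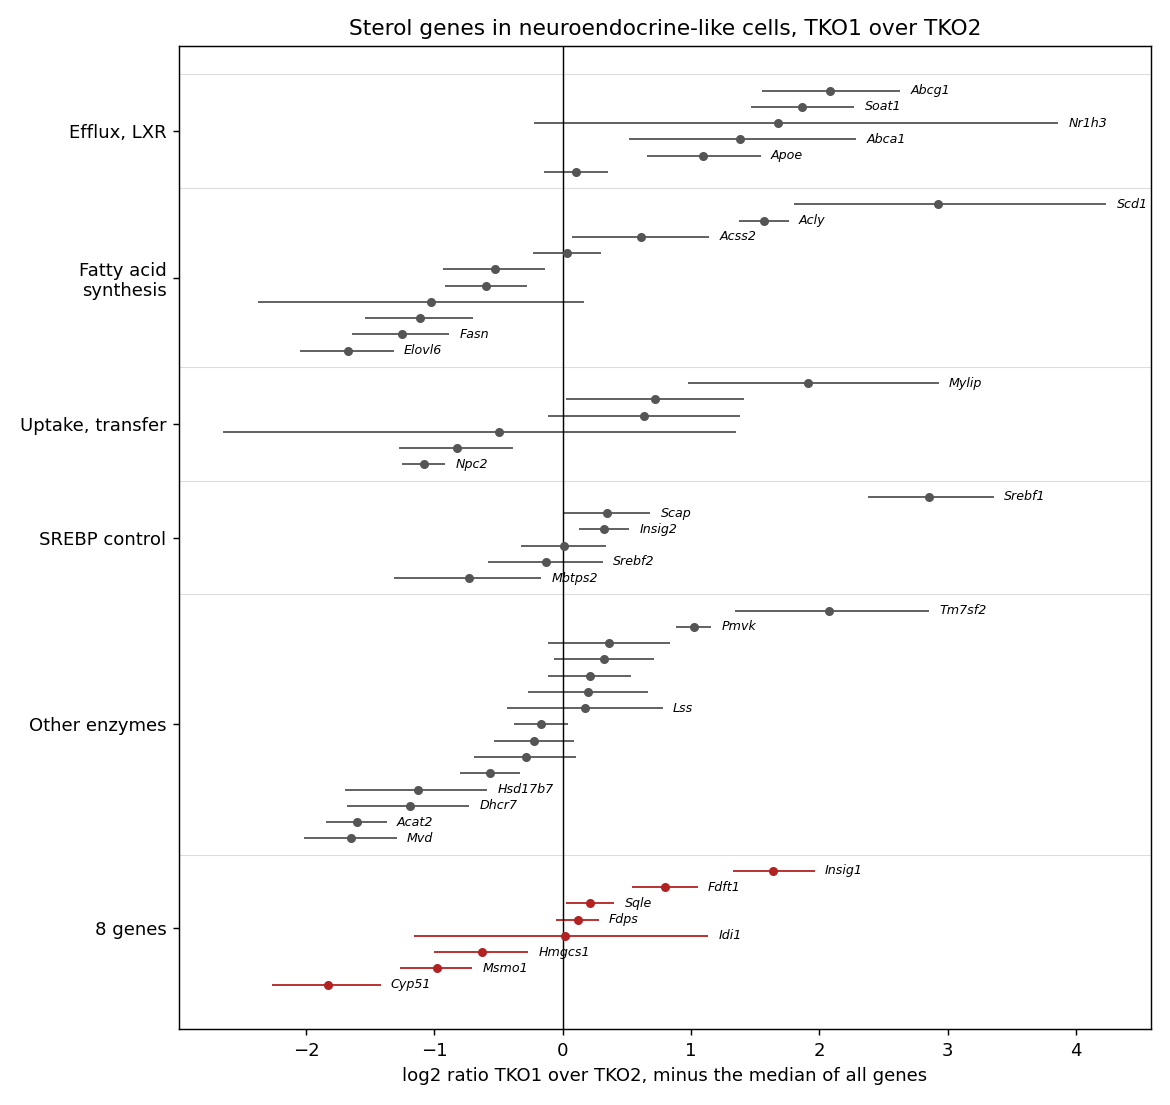
Log2 ratio of TKO1 over TKO2 in neuroendocrine-like cells minus the median of all genes (x axis), 1 point per gene with its 95% interval for counting error, for the 8 genes (red) and for related lists (grey), with a name at the genes the text describes. The 8 genes run from *Cyp51* at -1.83 to *Insig1* at 1.64, and the efflux and LXR genes lie at or above 0.11.

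All 15 other enzymes of the pathway were measured. Relative to all genes, 2 were higher in TKO1 with an interval above 0, 5 were lower and 8 had an interval that held 0, beside the same 34.5% and 33.8% of all genes. *Tm7sf2*, a sterol C14 reductase, was the highest at 2.08 (1.35 to 2.85, 58 against 22 UMIs), and *Pmvk*, the kinase of phosphomevalonate, was at 1.02 (0.88 to 1.16, 971 against 766 UMIs). *Mvd*, which makes isopentenyl diphosphate, was at -1.65 (-2.02 to -1.29), *Acat2*, which makes acetoacetyl-CoA, at -1.61 (-1.85 to -1.37), *Dhcr7*, the last reductase, at -1.19 (-1.68 to -0.73) and *Hsd17b7* at -1.12 (-1.69 to -0.59). The median of the list was -0.17 relative to all genes, and 2 of 15 were past 2-fold in each direction in CPM, beside the same 31.0% and 12.0% of all genes.

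Of the genes that control SREBP-2, *Srebf2* itself was at -0.13 relative to all genes (-0.58 to 0.31, 68 and 119 UMIs) and *Scap* at 0.34 (-0.00 to 0.68). *Insig2*, the paralog of *Insig1*, was at 0.32 (0.13 to 0.52), a value close to that of *Scap* and below the 1.64 of *Insig1*. *Srebf1*, whose product governs fatty acid genes, stood apart at 2.85 (2.38 to 3.36, 199 against 44 UMIs). Over these 6 genes, 2 had an interval above 0, 1 (*Mbtps2*, a protease that releases SREBP) below 0 and 3 held 0, beside 34.5% above and 33.8% below of all tested genes.

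Of 6 tested uptake and transfer genes, 2 were above relative to all genes, 2 below and 2 had an interval that held 0. That is near the 34.5% above and 33.8% below of all tested genes. *Mylip*, a ubiquitin ligase, was at 1.91 (0.97 to 2.93), and *Npc2*, a lysosomal sterol carrier, at -1.08 (-1.25 to -0.91). *Npc1l1* had 0 UMIs in TKO1 and 1 in TKO2 and was not tested.

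Of the 6 genes of sterol efflux and of the liver X receptors, which respond to sterol excess, 4 had an interval above 0 relative to all genes (34.5% of all genes), 0 below and 2 held 0, and 5 of 6 were past 2-fold toward TKO1 in CPM (31.0% of all genes). The same 6 genes summed to 13257 CPM in the macrophage-like cells of TKO1 and 3685 CPM in those of TKO2, against 173 and 71.1 CPM in the neuroendocrine-like cells, where macrophage markers summed to 42.5 and 14.0 CPM, and the part of macrophage RNA in these values was not tested. *Abcg1*, a cholesterol exporter, had 29.5 CPM in TKO1 and 5.41 CPM in TKO2 and was at 2.08 (1.55 to 2.63). *Soat1*, which esterifies cholesterol, was at 1.86 (1.47 to 2.27), *Abca1*, a second exporter, at 1.38 (0.51 to 2.29) and *Apoe* at 1.10 (0.66 to 1.54). *Nr1h3*, an LXR, rested on 8 and 4 UMIs. The median of the list was 1.53 relative to all genes.

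Fatty acid synthesis genes, most of them targets of SREBP-1, also lay on both sides of the median of all genes. Relative to all genes, 3 of 10 were above with *Scd1* at 2.93 (1.80 to 4.24, 38 against 8 UMIs), *Acly* at 1.57 (1.38 to 1.76) and *Acss2* at 0.61 (0.07 to 1.14), 5 of 10 were below with *Elovl6* at -1.67 (-2.05 to -1.32) and *Fasn* at -1.25 (-1.64 to -0.89), and 2 held 0. Of all tested genes, 34.5% were above and 33.8% below.

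Within each tumor, the macrophage-like cells carried lower levels of the 8 genes in CPM than the neuroendocrine-like cells. Summed, they had 133 CPM (19 UMIs) against 456 CPM in TKO1, a log2 ratio of -1.78 (-2.51 to -1.13), and 195 CPM (44 UMIs) against 344 CPM in TKO2, a ratio of -0.82 (-1.28 to -0.39). In TKO1, 5 of 8 genes were at least 2-fold lower in the macrophage-like cells (*Hmgcs1*, *Fdps*, *Fdft1*, *Sqle* and *Msmo1*), beside 22.7% of all tested genes. In TKO2, 4 of 8 were (*Hmgcs1*, *Fdps*, *Sqle* and *Cyp51*), beside 20.0% of all tested genes. A gene with 0 UMIs in the macrophage-like cells was taken at 3 UMIs, which is 21.0 CPM in TKO1 and 13.3 CPM in TKO2. Genes sparse in both classes could therefore not be called unless a UMI was seen, so these shares are no like background for the 8 genes. The *Hmgcs1* and *Msmo1* values in TKO1 and the *Hmgcs1* and *Cyp51* values in TKO2 rest on 1 to 4 UMIs and their intervals hold 0. Among cells with more than 1000 genes, the ratio of the sum was -0.65 in TKO1 (-2.10 to 0.48) and -0.52 in TKO2 (-1.18 to 0.07), so that both intervals held 0.

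*Sqle* and *Fdps* were the genes with an interval below 0 in both tumors. *Sqle* was at 27.97 CPM (4 UMIs) against 106 CPM in TKO1 (-1.93, -3.81 to -0.56) and 26.6 CPM (6 UMIs) against 71.3 CPM in TKO2 (-1.42, -2.87 to -0.29). *Fdps* was at -2.27 (-4.15 to -0.91) and -1.12 (-2.19 to -0.24), and *Fdft1* at -3.34 (-8.65 to -0.85) in TKO1, from 1 UMI, and -0.83 (-2.72 to 0.54) in TKO2. *Insig1* was at 35.0 CPM (5 UMIs) in the macrophage-like cells of TKO1, below the 65.3 CPM of the neuroendocrine-like cells, and at 31.1 CPM (7 UMIs) in those of TKO2, above the 16.2 CPM, but both intervals held 0. The macrophage-like point values of *Insig1* in the 2 tumors thus lay side by side where the neuroendocrine-like levels stood 4.02-fold apart. Their intervals, 11.4 to 81.6 CPM in TKO1 and 12.5 to 64.0 CPM in TKO2, are too wide to show equal levels. Neuroendocrine marker UMIs in the macrophage-like cells (4510 and 759 CPM) stood beside these class ratios, and the part of such UMIs in the ratios was not tested.

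In CPM the 8 genes were lower in cluster 8 of TKO1, at 208 CPM (41 UMIs), a log2 ratio of -1.13 (-1.61 to -0.68) over the neuroendocrine-like cells. In cluster 9 of TKO2 they were at 201 CPM (24 UMIs), a ratio of -0.78 (-1.42 to -0.20). The median log2 ratio of all genes was -0.33 in cluster 8 and 0 in cluster 9. A gene with 0 UMIs in a cluster was taken at 3 UMIs, with a ratio of at most 0. These medians thus rest in part on that rule and do not show whether the typical gene was shifted. Club cell markers summed to 273533 and 62516 CPM in these clusters. Cluster 4 of TKO1, led by *Fam183b*, *Cfap126*, *Adm*, *Trib3*, *Ddit3* and *Ndrg1*, was at 399 CPM against 456 CPM, a log2 ratio of -0.19 (-0.42 to 0.03). The 8 genes stood on both sides of 0 there. *Hmgcs1* was at 4.33 CPM (2 UMIs) against 23.4 CPM, a ratio of -2.43 (-5.50 to -0.53), *Fdps* at 69.4 CPM against 135 CPM (-0.96, -1.53 to -0.45), and *Idi1* at 0 UMIs, where 3 UMIs would be 6.50 CPM. *Sqle* was higher at 152 CPM (70 UMIs) against 106 CPM (0.51, 0.12 to 0.88), and *Insig1* at 84.5 CPM was at 0.37 (-0.15 to 0.86). Of the 8 genes, 2 (*Hmgcs1* and *Cyp51*) were at least 2-fold lower in cluster 4, beside 11.5% of all tested genes. The *Cyp51* value rests on 3 UMIs, 6.50 CPM against 15.1 CPM, a ratio of -1.22 (-3.54 to 0.40) whose interval holds 0. Genes at 0 UMIs were taken at 3 UMIs here too, so sparse genes without a UMI could not be called and the 11.5% is no like background. In the same cluster, hypoxia genes summed to 10605 CPM against 4964 CPM, integrated stress response genes to 1641 against 902 CPM and proliferation genes to 243 against 1705 CPM, and their part in these values was not tested.

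The neuroendocrine-like clusters of a tumor differed in their level of the pathway. None of the 8 genes was among the variable genes used for clustering. In TKO1 the sum ran from 324 CPM in cluster 3, led by *Rgs4*, *Ttr* and *Anxa1*, to 640 CPM in cluster 1, led by *Dcpp1* and *Npy1r*, with a median over the 7 clusters of 451 CPM. In TKO2 it ran from 256 CPM in cluster 7, a cluster with mitotic genes such as *Cenpf* and *Mki67*, to 420 CPM in cluster 6, led by *Spp1*, with a median over 8 clusters of 343 CPM. In both tumors the intervals of the lowest and highest cluster did not overlap. The same held in TKO1 for each single gene but *Hmgcs1* and *Idi1*, and in TKO2 for each but *Idi1*, *Insig1* and *Cyp51*. These clusters were picked by their values, and how many of all genes show such intervals was not counted.

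Cluster 1 of TKO1 was the highest of its tumor for 5 of the 8 genes, *Hmgcs1* at 34.8 CPM, *Fdps* at 183 CPM, *Fdft1* at 91.4 CPM, *Sqle* at 152 CPM and *Msmo1* at 80.5 CPM. Cluster 7 of TKO1, led by *Nefm* and *Neurog3*, was the lowest for *Hmgcs1* (11.8 CPM), *Sqle* (53.0 CPM) and *Msmo1* (14.7 CPM), yet the highest for *Cyp51* (38.3 CPM, 20.4 to 65.4). In TKO2, cluster 6 was the highest for *Hmgcs1* (47.2 CPM), *Sqle* (89.6 CPM), *Msmo1* (72.6 CPM) and *Cyp51* (54.5 CPM).

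Across clusters, *Insig1* was the only one of the 8 genes whose point values did not overlap between the tumors. Its lowest cluster in TKO1 had 38.9 CPM and its highest 82.8 CPM, against 9.02 and 23.6 CPM in TKO2, and the ranges stayed apart relative to the median of all genes. The intervals of the nearest clusters did overlap, 24.9 to 57.9 CPM in cluster 6 of TKO1 and 15.7 to 34.1 CPM in cluster 3 of TKO2. *Cyp51* ran from 6.27 to 38.3 CPM and from 22.6 to 54.5 CPM, and *Fdft1* from 39.7 to 91.4 CPM and from 19.1 to 49.1 CPM, so both overlapped. Clusters of a tumor share 1 library and are not replicates. How many of all genes have cluster values apart between the tumors in this way was not counted.

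**Figure D3:**
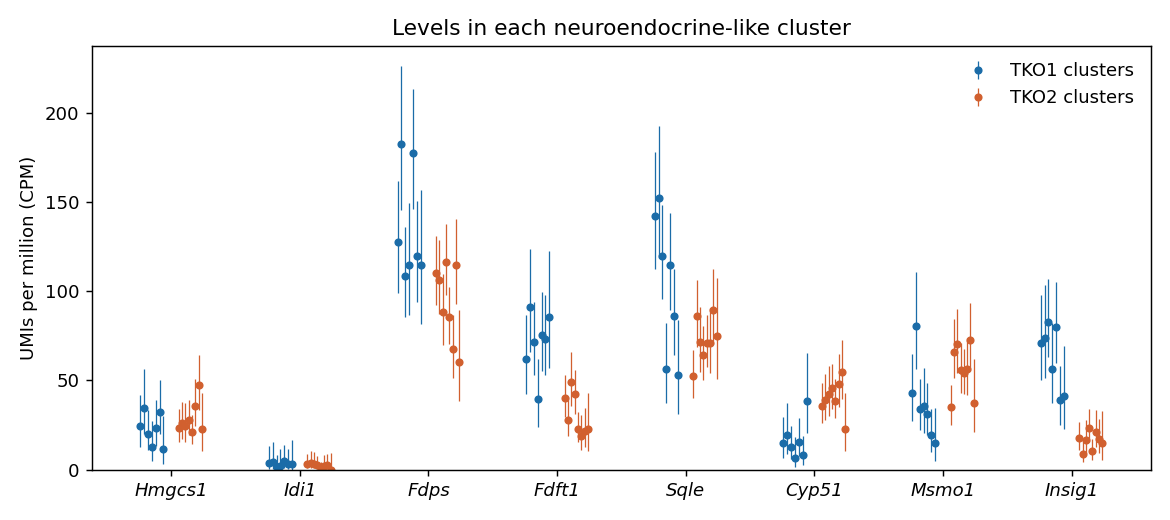
Level of each gene in CPM (y axis) in each neuroendocrine-like cluster of TKO1 (blue, 7 clusters) and TKO2 (orange, 8 clusters), with exact Poisson 95% intervals. The *Insig1* points of TKO1, from 38.9 CPM, lie above those of TKO2, up to 23.6 CPM, though the nearest intervals overlap, and the points of the other genes overlap.

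Single cells were compared after each was thinned to 1000 UMIs, which left 1892 neuroendocrine-like cells of TKO1 (728 shallower cells left out) and 3020 of TKO2 (361 left out). At this depth, 33.1% (31.0 to 35.3) of the cells of TKO1 and 26.9% (25.3 to 28.5) of those of TKO2 had a UMI of any of the 8 genes, with exact Clopper-Pearson intervals. Without thinning, the shares were 41.7% and 46.2%, in the opposite order, at median depths of 1225 and 1983 UMIs over all neuroendocrine-like cells. *Insig1* was found in 6.40% (5.33 to 7.59) of the thinned cells of TKO1 and 1.56% (1.15 to 2.06) of those of TKO2, and *Cyp51* in 1.32% (0.857 to 1.94) and 3.68% (3.03 to 4.41). *Idi1* was found in 0.423% and 0.199%.

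In the thinned macrophage-like cells, 11.0% of 82 cells in TKO1 (5.14 to 19.8) and 18.8% of 112 cells in TKO2 (12.0 to 27.2) had a UMI of any of the 8 genes, at median depths before thinning of 1433 and 1718 UMIs, against 1418 and 2108 UMIs in the thinned neuroendocrine-like cells. In TKO2 the macrophage-like point shares of *Msmo1* (5.36% against 5.00%) and *Insig1* (3.57% against 1.56%) were not below the neuroendocrine-like ones. They rest on 6 and 4 cells. Their intervals, 1.99 to 11.3% and 0.98 to 8.89%, hold the neuroendocrine-like shares and are too wide to show an order. No class here was known to lack these genes, and free RNA and expression in the macrophage-like cells cannot be told apart from these shares.

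Single genes spread from cell to cell at or somewhat above counting error, and their sum above it. The Fano factor (variance over mean, 1 for counting error alone) of single genes ran from 0.987 for *Cyp51* to 1.29 for *Hmgcs1* in TKO1 and from 0.998 for *Idi1* to 1.18 for *Fdps* in TKO2, beside medians of 1.17 and 1.10 over the genes averaging 0.05 UMIs or more per cell. Only 4 of the 8 genes in TKO1 and 3 in TKO2 reach that mean, so the medians are no match for the sparser ones. The sum of the 8 genes had a Fano factor of 1.32 in TKO1 and 1.21 in TKO2. No interval was computed for these factors.

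Pairwise correlation across these cells was weak. The points are cells of 1 library at 1 depth, with mostly 0 or 1 UMI per gene, and the values are descriptions. Over the 28 pairs, Pearson's r ran from -0.02 to 0.09 in TKO1 (median 0.02, 21 pairs above 0) and from -0.02 to 0.07 in TKO2 (median 0.00, 16 pairs above 0). A second random thinning gave a median of 0.01 in TKO1. Thinning to 2000 UMIs, which keeps only the deeper cells, gave -0.01. The sign of the TKO1 median thus differed between settings that change both the depth and the cells. Of the pairs, 15 were above 0 in both tumors and 6 below 0 in both. How many pairs of other genes with like means lie above 0 was not counted, so these counts have no background to be set against.

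*Msmo1* took part in both pairs that reached 0.05 in each tumor. *Msmo1* and *Cyp51* were at 0.07 in TKO1, where 3 cells had a UMI of both against 0.793 cells from the product of their shares, and at 0.07 in TKO2, where 15 cells had both against 5.55. *Msmo1* and *Hmgcs1* were at 0.06 in TKO1 (6 cells with both against 1.59) and at 0.07 in TKO2 (9 against 3.80). *Msmo1* and *Sqle* were at 0.09 in TKO1, with 12 cells against 5.30. *Insig1* and *Cyp51*, which lay at opposite ends between the tumors, were at 0.08 in TKO1, with 5 cells against 1.60, and at 0.00 in TKO2. With the summed UMIs of the other 7 genes, *Msmo1* had the highest r of the 8 genes in both tumors, 0.12 in TKO1 and 0.07 in TKO2. Genes averaging at least 0.05 UMIs per cell were ranked by r with the sum. Among 3560 such genes in TKO1, *Insig1* ranked 19, *Sqle* 30, *Fdps* 74 and *Fdft1* 208. Among 2943 in TKO2, *Msmo1* ranked 1, *Sqle* 12 and *Fdps* 34. The r of these ranked members ran from 0.04 to 0.07, and the remaining genes of the 8 were too sparse to be ranked.

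**Figure D4:**
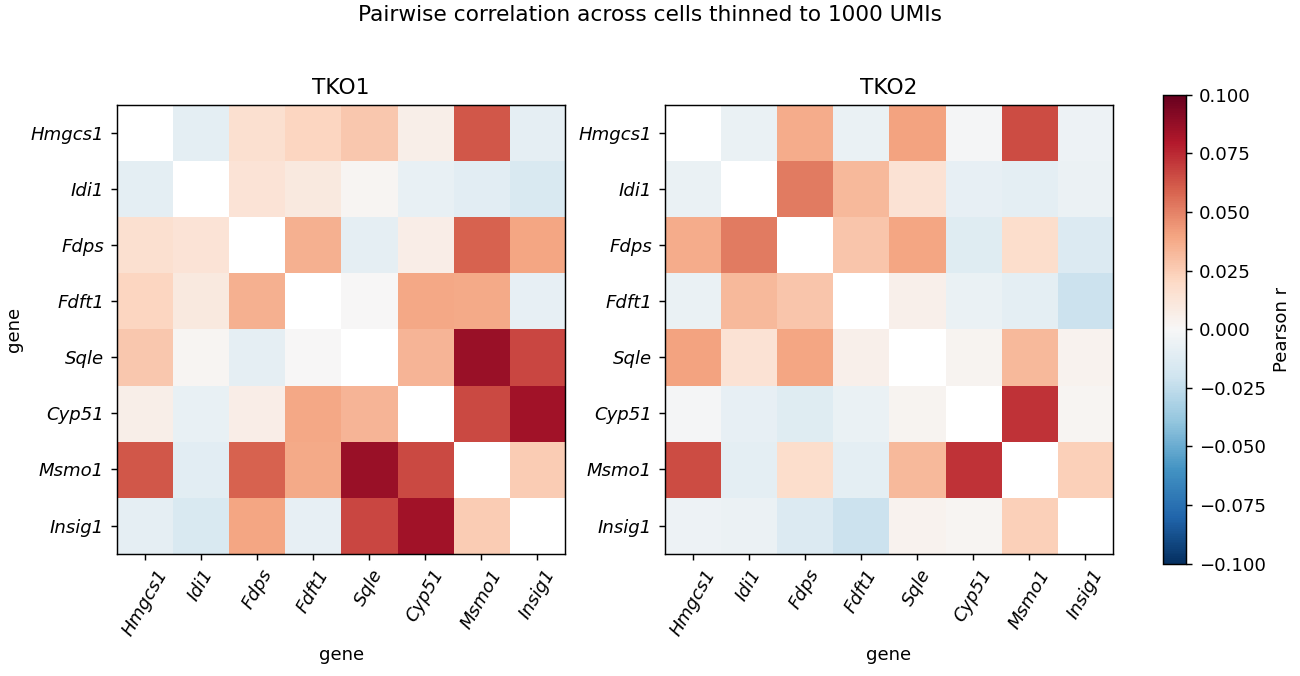
Pearson correlation (color, from -0.1 to 0.1) of each pair of the 8 genes across neuroendocrine-like cells thinned to 1000 UMIs, TKO1 on the left (1892 cells) and TKO2 on the right (3020 cells), diagonal left blank. Most squares are near 0, and the *Msmo1* row holds the reddest squares that occur in both tumors, with *Cyp51* and with *Hmgcs1*.

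The genes outside the list whose UMIs followed the summed 8 genes most closely had r of at most 0.11. In TKO1 (3560 genes ranked) they included *Yeats4* at 0.11, *Tuba1a*, *Ung*, *Tln1*, *Grhpr*, *2310009B15Rik*, *Tmem208*, *Psma1* and *H3f3a* at 0.07. In TKO2 (2943 genes ranked) they included *Cartpt* at 0.07, *Tuba1a*, *Hoxb8*, *Nr2c2ap*, *Prdx2*, *Stmn4*, *Psmb7*, *Whsc1* and *Asph* at 0.05. *Tuba1a*, an alpha-tubulin gene, was the 1 gene in both lists. Over all ranked genes r went down to -0.083 in TKO1 and -0.080 in TKO2, so the named genes are the upper end of a spread on both sides of 0. Of the other pathway enzymes, 10 of 15 in TKO1 and 12 of 15 in TKO2 had an r above 0 with the sum. The share of all genes above 0 was not counted. The median r over all ranked genes was 0.00 in both tumors, but only 4 of the enzymes in TKO1 and 5 in TKO2 were dense enough to be ranked. Among the ranked enzymes, *Acat2* was at 0.02 in TKO1 and 0.05 in TKO2, and *Pmvk* at -0.03 and 0.02. *Lbr* and *Ebp* were below 0 in both, and *Mvd*, ranked in TKO2 alone, was at 0.03. Of all 15, *Lss* was the highest in TKO1 at 0.10 but was at -0.01 in TKO2, and *Dhcr7* was the highest in TKO2 at 0.06 but was at -0.03 in TKO1.

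Grouping the thinned cells by *Hmgcs1* gives the same data as levels. In TKO1, 50 cells had a *Hmgcs1* UMI (46 had 1 and 4 had more), and in TKO2, 76 cells (70 and 6). The other 7 genes together were at 700 CPM (35 UMIs) in these cells of TKO1 against 426 CPM in the 1842 cells without, a log2 ratio of 0.72 (0.18 to 1.2). In TKO2 they were at 553 CPM (42 UMIs) against 312 CPM in 2944 cells, a ratio of 0.83 (0.34 to 1.27). At 2000 UMIs per cell the ratio was -0.27 (-1.23 to 0.56) in TKO1, from 18 cells with a *Hmgcs1* UMI, 12 UMIs of the other genes and 435 cells without. In TKO2 it was 0.51 (0.15 to 0.86), from 89 cells with and 1576 without. The sign in TKO1 thus differed between the settings, and the interval at 2000 UMIs held 0. Only deeper cells reach 2000 UMIs, so depth and the cells kept cannot be told apart.

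*Msmo1* differed most between these cells. It was at 140 CPM (7 UMIs) with and 34.2 CPM without a *Hmgcs1* UMI in TKO1, a log2 ratio of 2.03 (0.66 to 3.16), and at 145 CPM (11 UMIs) and 52.3 CPM in TKO2, a ratio of 1.47 (0.44 to 2.35). *Fdps* was at a ratio of 0.55 (-0.53 to 1.45) in TKO1 and at 197 against 97.8 CPM in TKO2 (1.01, 0.16 to 1.76). *Sqle* was at 0.87 (-0.28 to 1.83) and 0.85 (-0.23 to 1.76), and *Insig1* at -0.26 and -0.31 from 3 and 1 UMIs. The interval of *Msmo1* lay above 0 in both tumors and that of *Fdps* in TKO2 alone, while the intervals of the remaining genes held 0. Grouped by *Sqle* instead, the other 7 genes together were at a ratio of 0.41 (0.05 to 0.75) in TKO1, from 167 cells with a *Sqle* UMI. In TKO2 that ratio was 0.61 (0.27 to 0.94), from 213 cells.

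**Figure D5:**
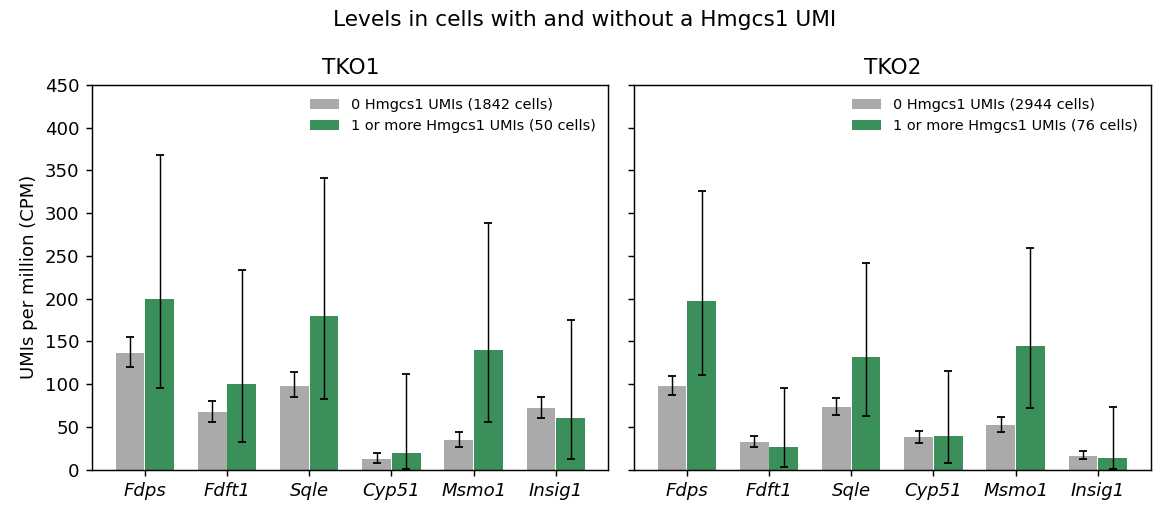
Level of 6 genes in CPM (y axis) in neuroendocrine-like cells thinned to 1000 UMIs, without (grey) and with (green) a *Hmgcs1* UMI, TKO1 on the left and TKO2 on the right, with exact Poisson 95% intervals. *Msmo1* is at 140 against 34.2 CPM in TKO1 and at 145 against 52.3 CPM in TKO2, and the intervals of *Insig1* and *Cyp51* overlap.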

How the data were processed

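Single-cell RNA-seq libraries of 2 tumors, 1 per tumor, were analysed. The authors deposited UMI counts per gene and barcode, not normalized, and their processing notes name Cell Ranger, Seurat and mm10, with no versions. Barcodes needed over 500 genes and under 10% mitochondrial UMIs, a limit that removed none, and were clustered per tumor in Seurat 5.3.0 (R 4.3.3): genes in at least 10 cells, 10000 UMIs per cell, 1000 variable genes, 10 principal components, resolution 0.8. A cluster was named from at least 3 markers, 4-fold over the other cells, or for neuroendocrine cells 2-fold over macrophage-like cells. Scrublet (scanpy 1.11.5) called 1 and 0 cells, which is not a working call, so doublets were kept. UMIs were summed per class and scaled to CPM. Intervals are exact (Poisson, conditional binomial for ratios, Clopper-Pearson for shares). Where a class was at 0, a limit of 3 UMIs was used. Cells were thinned with seed 1. TMM factors came from edgeR 4.0.16. Calculations used Python 3.11.15, numpy 2.4.6, scipy 1.17.1 and pandas 2.3.3, figures matplotlib 3.10.9, and steps were tested on simulated data. The 8 genes, the lists (other enzymes, SREBP control, uptake, fatty acid synthesis, efflux and LXR, hypoxia, stress response, proliferation) and the markers were chosen with earlier results of these data known. Named are these genes, genes of the lists, the deleted genes, and per tumor the 10 other genes with the highest correlation with the summed 8 among those averaging at least 0.05 UMIs per thinned cell, with overlapping neighbours and genes that lead a cluster named after their values were seen. Alternatives covered filters, doublets, clustering, scaling, thinning and cells summed. Some genes of the lists and rankings are counted but not reported here. Subtype assignment from human cell lines was not used here.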

Additional observations from a re-analysis of the deposited data

Results flagged for a closer look

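The barcodes with 500 or fewer detected genes, which the main comparisons left out and only the alternative with more than 200 genes used in part, also held UMIs of the 8 genes. They were at 280 CPM (242 to 321) over 1321 barcodes of TKO1 and at 231 CPM (167 to 311) over 248 barcodes of TKO2, above the 4.18 and 16.1 CPM that 0 UMIs would allow. *Insig1* in macrophage-like over neuroendocrine-like cells had a log2 ratio of -0.90 in TKO1 and 0.94 in TKO2, opposite directions whose difference was not tested. *Fdft1* in cells with over cells without a *Hmgcs1* UMI was at 0.57 in TKO1 and -0.29 in TKO2, from 5 and 2 UMIs, and this difference was not tested either.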

How the results depend on the processing

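The sign of the ratio between the tumors, before the median of all genes is taken off, was the same in 14 of 14 alternatives. This covers the summed genes, *Insig1*, *Fdft1*, *Sqle*, *Fdps*, *Msmo1* and *Cyp51*. Against the median of all genes, the sum changed side in some settings. It was 0.345 beside a median of 0.357 over all retained cells, and 0.327 beside 0.396 without cells with a proliferation UMI. In that last setting *Fdps* was 0.226 beside 0.396. In the main setting both lay above the median. The interval held 0 with TMM factors for the sum (-0.07 to 0.11) and *Fdps* (-0.07 to 0.26). It also held 0 for *Msmo1* and *Fdps* without the cells with a UMI of a proliferation gene. The summed ratio moved to 0.018 with TMM factors, to 0.20 with mitochondrial and ribosomal protein UMIs taken out, and ran up to 0.43. Single ratios ran from 1.62 to 2.14 for *Insig1*, -1.85 to -1.34 for *Cyp51*, -1.0 to -0.24 for *Msmo1*, 0.77 to 1.18 for *Fdft1*, 0.19 to 0.65 for *Sqle*, 0.09 to 0.55 for *Fdps*, -0.65 to 0.12 for *Hmgcs1* and -1.28 to 1.26 for *Idi1*. The number past 2-fold ran from 2 to 4. The median over all genes turned to -0.021 with TMM factors, and was 0.17 without those UMIs and 0.27 with no minimum of UMIs. The class ratio in TKO1 moved to -0.65 and that in TKO2 to -0.52 with more than 1000 genes, where both intervals held 0. The median pairwise correlation in TKO1 was 0.0063 at 500 UMIs, -0.0087 at 2000 UMIs, 0.0074 with another seed and 0.027 without cells with a proliferation UMI, and in TKO2 0.014 at 2000 UMIs. The ratio by *Hmgcs1* UMIs in TKO1 was -0.27 at 2000 UMIs. The cause of these moves was not tested, beyond what each alternative changes by construction. Of the 10 genes most correlated with the sum, 6 in TKO1 and 5 or 6 in TKO2 remained with another minimum mean. Leaving out clusters led by markers of another type changed nothing, since no neuroendocrine-like cluster was. Adding cluster 4 of TKO1, leaving out shared barcodes or, between the tumors, cells with a proliferation UMI, and the grouping at 2000 UMIs were chosen after seeing the data. No paired analysis was possible because each tumor has 1 library. *Idi1* and the macrophage-like cells are limited by depth, with 12 and 19 UMIs of *Idi1* and 19 and 44 UMIs of the 8 genes in macrophage-like cells.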

Other observations

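Outside sterol metabolism, lists of hypoxia, stress response and proliferation genes were compared between the neuroendocrine-like cells of the tumors, where 34.5% of all genes had an interval above 0 relative to all genes and 33.8% one below 0. Of 11 tested hypoxia genes, 8 were higher in TKO1 relative to all genes, 1 lower and 2 had an interval that held 0, with *Egln3*, an oxygen sensor, at 2.29 (2.05 to 2.53) and *Bnip3*, a mitophagy receptor, at 1.47 (1.39 to 1.55). Of 10 proliferation genes, 9 were lower in TKO1 and 1, *Mki67*, was higher at 0.64 (0.42 to 0.86), with *Rrm2*, a ribonucleotide reductase subunit, at -1.80 (-1.94 to -1.66).

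Integrated stress response genes ran both ways, with 3 of 9 higher, 5 lower and 1 with an interval that held 0. *Psat1* and *Phgdh*, enzymes of serine synthesis, had 5.58 and 10.4 CPM in TKO1 and 133 and 139 CPM in TKO2, at -4.95 (-5.65 to -4.33) and -4.11 (-4.61 to -3.65). *Atf3*, a stress-induced factor, had 464 CPM in TKO1 and 49.9 CPM in TKO2, at 2.85 (2.69 to 3.02).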
